A study of Mus musculus with 12 samples.

Results

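Unmethylated CCCGGG sites that stand apart from other CCCGGG sites are described here in colonic adenomas of mice. A site belongs to the class if it is autosomal, has at least 100 reads in each of 11 libraries, has a mean adjusted methylation level below 5% over the 3 control adenomas, and has no other listed CCCGGG site within 500 bp. The rule found 121 of the 173449 listed sites. The control levels chose the members, so the low control level is part of the definition, and every comparison with control is given as a description with no test. The tests compare the mutant genotypes with each other, which the rule did not use.

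The adenomas were dissected from C57BL/6J mice killed at 150 to 160 days of age, with 3 adenomas for each of 4 genotypes. All 12 carry ApcMin/+, a germline truncating allele of the tumour suppressor Apc that gives rise to intestinal adenomas, so the control adenomas are tumours too and not normal colon. The Tet1 null adenomas are Tet1-/- with wild-type Tdg. The double heterozygous adenomas combine Tet1+/- with TdgN151A/+. The Tdg heterozygous adenomas are TdgN151A/+ with wild-type Tet1, and the control adenomas are wild type for both genes. Both Tdg mutant groups keep 1 wild-type Tdg allele. The labels name no sorting of cells, so each level is an average over all cells of an adenoma. They do not tie the adenomas to animals, and each p-value therefore covers only the spread among the adenomas at hand, which may be technical in part.

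Mammalian CpG sites are mostly methylated, except in CpG-rich stretches, many of them at promoters, which stay unmethylated in normal tissue. Tet1 is a dioxygenase with a CXXC domain that binds unmethylated CpG-rich DNA, and it oxidises 5-methylcytosine. Tdg is a DNA glycosylase that cuts out the most oxidised forms so that repair can restore an unmethylated cytosine, and the N151A substitution lies in its catalytic site. In digital restriction enzyme analysis of methylation, the enzyme SmaI first cuts unmethylated CCCGGG sites and XmaI then cuts the methylated sites that are left. The ends left by each enzyme differ, so each read is counted as methylated or unmethylated at its site.

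The 12 libraries held 2349576 to 18865833 reads over all sites. Double heterozygous adenoma 3 was the shallowest, with a median of 97 reads at the members, and it is left out of the group values and tests. In the other 11 libraries the median depth at the members was 118 reads (Tet1 null adenoma 3) to 535 reads (Tet1 null adenoma 1). Tet1 null adenoma 3 was the shallowest of the 11 at 119 of the 121 members, so its depth decided which isolated sites entered. At its median depth 1 methylated read is a level of 0.847%, and 0 methylated reads allow a level of up to 2.54% (3 reads). In Tet1 null adenoma 1 the same floor is 0.561%. The labels name no molecular identifiers, so floors and intervals cover counting error only. By reads on the Y chromosome, Tet1 null adenomas 1 and 2, all double heterozygous adenomas, Tdg heterozygous adenoma 2 and control adenoma 1 were male.

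The members are isolated only just beyond the 500 bp of the rule. Their nearest listed site lay 501 to 553 bp away, with a median of 511 bp, and the second nearest lay at a median of 888 bp (511 to 26489 bp). A median of 4 listed sites (1 to 20) lay within 10 kb of a member. Sites farther from their neighbours were rarely deep enough. Of autosomal sites whose nearest neighbour lay at 401 to 450 bp, 86.9% had 100 reads in the 11 libraries, and at 451 to 500 bp 62.4% did. The share was 11.7% (156 of 1338 sites) at 501 to 550 bp, 1 of 1200 sites at 551 to 600 bp and 0 of 2643 sites at 601 to 700 bp. Beyond that it was 1 of 6118 sites at 701 to 1000 bp and 20 of 105429 farther out, none of them a member. Both ends of a restriction fragment are CCCGGG sites, and the median number of reads per site and library was 253 at 501 to 510 bp and 79.9 at 591 to 600 bp. Over the genome 116728 autosomal sites had no other listed site within 500 bp, but only 178 of these passed the depth minimum and 121 of the 178 were below 5% in control. The class therefore describes isolated sites whose nearest neighbour lies just past 500 bp, and says nothing of the other isolated sites.

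**Figure D1:**
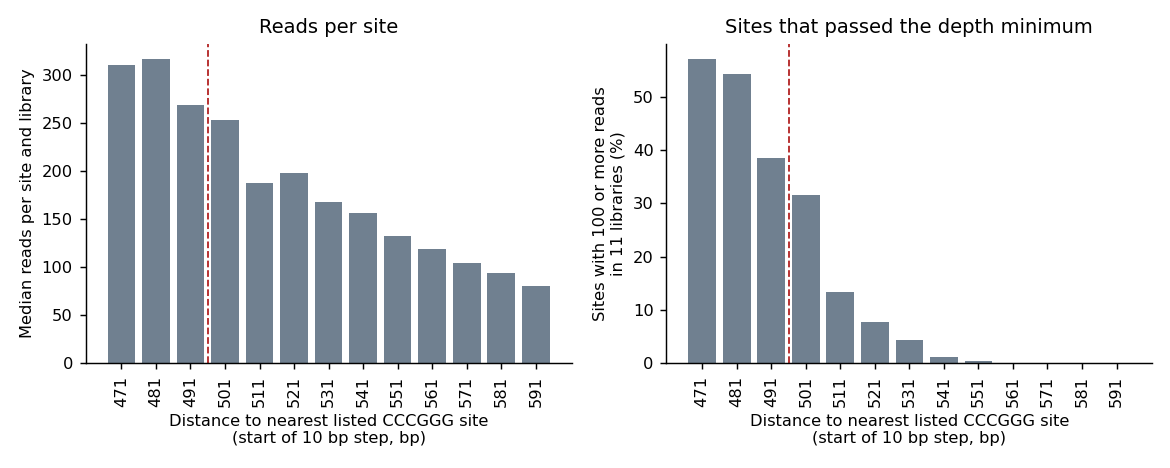
Autosomal sites grouped by distance to the nearest listed CCCGGG site in steps of 10 bp: left, median reads per site and library; right, percent of sites with 100 or more reads in 11 libraries. The dashed line marks the 500 bp of the rule, and both heights decline across it, with no site at 561 to 600 bp reaching the depth minimum.

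The members were spread over 18 autosomes, with the most on chromosomes 7 (16 members), 11 (15) and 9 (13). They often share a fragment: 60 members formed 30 pairs that are each other's nearest listed site, and joining members under 1 kb apart left 89 loci. Members of a pair are therefore not independent of each other in depth or position. The reads of a member, summed over the 11 libraries, were within 10% of those of its nearest site at 79 of 121 members. All positions are given in mm9, the build of the files. No gene annotation of that build was used, so the sites are not assigned to genes, exons or promoters.

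Methylation was absent or very low at most members in every genotype. The median level over the 121 members was 0 in each of the 12 libraries. No methylated level above 0 was seen at 35 members in any of the 11 libraries, 84 members stayed below 1% in all 11, and 116 stayed below 5% in all 11. A level of 10% or more was reached once, at chr17:43939352 in Tet1 null adenoma 2. As a share of members this is 0.275% ± 0.477 in Tet1 null adenomas (SD, n = 3) and 0 in the other genotypes.

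The mean level over the 121 members was 0.490%, 0.735% and 0.597% in the Tet1 null adenomas, 0.525% and 0.390% in the double heterozygous, 0.378%, 0.325% and 0.351% in the Tdg heterozygous and 0.285%, 0.327% and 0.333% in the control adenomas. The Tet1 null values lay above all Tdg heterozygous and control values, and the lowest of them lay below the higher double heterozygous value. By genotype the mean was 0.607% ± 0.123 in Tet1 null adenomas (SD, n = 3), 0.458% ± 0.0950 in double heterozygous (n = 2), 0.351% ± 0.0267 in Tdg heterozygous (n = 3) and 0.315% ± 0.0261 in control adenomas (n = 3). These means get no test, because the members were chosen with results of these data known. A few members carried much of them. The 2 members with the highest single levels, chr17:43939352 and chr4:151525833, held 15.4 to 24.9% of the summed level in the 11 libraries. Without the pair of members highest in the set, at chr17:43939352 and chr4:151525833, the mean level was 0.469% ± 0.0961 in Tet1 null, 0.374% ± 0.0638 in double heterozygous, 0.296% ± 0.0266 in Tdg heterozygous and 0.256% ± 0.0267 in control adenomas.

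**Figure D2:**
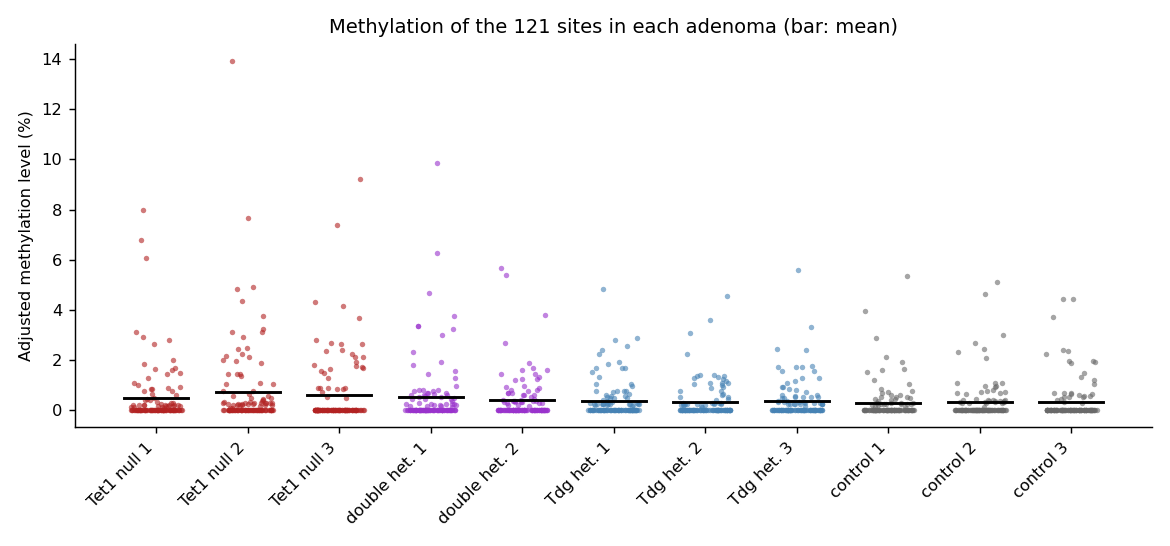
Adjusted methylation level (percent) of each of the 121 sites in the 11 adenomas of the rule; each point is a site and each bar the mean over the sites. Most points lie at or near 0 in every adenoma, and the bars run from 0.285% in control adenoma 1 to 0.735% in Tet1 null adenoma 2.

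The number of members at 1% or more was 17, 25 and 23 in the Tet1 null adenomas, 14 and 14 in the double heterozygous, 15, 16 and 14 in the Tdg heterozygous and 10, 10 and 14 in the control adenomas. Tet1 null adenomas thus held 14.0 to 20.7% of the members at this level and control adenomas 8.26 to 11.6%. The count also depends on depth. Double heterozygous adenoma 3, at a median of 97 reads, held 23 such members with a mean level of only 0.414%. Control adenoma 3, the shallowest control at a median of 198 reads, held the 14. Tet1 null adenoma 3 held its 23 at a median of 118 reads, and Tet1 null adenoma 2 its 25 at 405. The same members recurred only in part. A level of 1% or more in every adenoma of the genotype was reached by 14 members in Tet1 null, 9 in double heterozygous, 6 in Tdg heterozygous and 5 in control adenomas. The double heterozygous count rests on 2 adenomas and the others on 3, so they are not on the same footing. In at least 1 adenoma it was reached by 32 members in Tet1 null, 19 in double heterozygous, 24 in Tdg heterozygous and 18 in control adenomas. In all 11 libraries the level was 1% or more at 3 members, chr4:151525833, chr10:43442367 and chr17:43939352. Over the 8 mutant adenomas 19 members had a mean of 1% or more. Of these 19 the Tet1 null mean was above the Tdg heterozygous mean at 18, above the double heterozygous mean at 13 and above the control mean at 18, and it was the highest of the 4 genotypes at 12. These counts describe members picked by their mutant levels and get no test.

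Summing reads over the members gives the level with the most reads behind it. Methylated reads were 0.491% of 68268 reads (95% Clopper-Pearson interval 0.440 to 0.546%), 0.668% of 51929 (0.600 to 0.742%) and 0.586% of 16054 (0.473 to 0.716%) in the Tet1 null adenomas. They were 0.542% (0.484 to 0.605%) and 0.365% (0.311 to 0.426%) in the double heterozygous adenomas. In the Tdg heterozygous adenomas they were 0.360% (0.312 to 0.414%), 0.335% (0.290 to 0.385%) and 0.355% (0.303 to 0.412%). The control adenomas had 0.273% (0.231 to 0.321%), 0.361% (0.302 to 0.428%) and 0.302% (0.238 to 0.378%). The intervals of the 3 Tet1 null adenomas lay above those of the 3 Tdg heterozygous and the 3 control adenomas, and all 3 overlapped the interval of double heterozygous adenoma 1.

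Levels this low stand close to the background of the assay. The unmethylated spiked standards gave 1.29%, 0.827% and 0.147% methylated reads in the Tet1 null libraries, 1.66% and 0.833% in the double heterozygous, 0.559%, 0.120% and 0.133% in the Tdg heterozygous and 1.20%, 1.00% and 0.422% in the control libraries. The standards spread over a wider range than the members did. The summed member level was above the standard in Tet1 null adenoma 3 and in Tdg heterozygous adenomas 2 and 3. In all others of the 11 libraries it was below the standard. Across the 11 libraries the summed member level and the standard had a Pearson r of 0.19, given as a description. The part of this background in the differences between genotypes was not tested. Within males the mean level over members was 0.613% in Tet1 null (n = 2), 0.458% in double heterozygous (n = 2), 0.325% in Tdg heterozygous (n = 1) and 0.285% in control adenomas (n = 1). Within females it was 0.597% in Tet1 null (n = 1), 0.365% in Tdg heterozygous (n = 2) and 0.330% in control adenomas (n = 2), the same order.

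**Figure D3:**
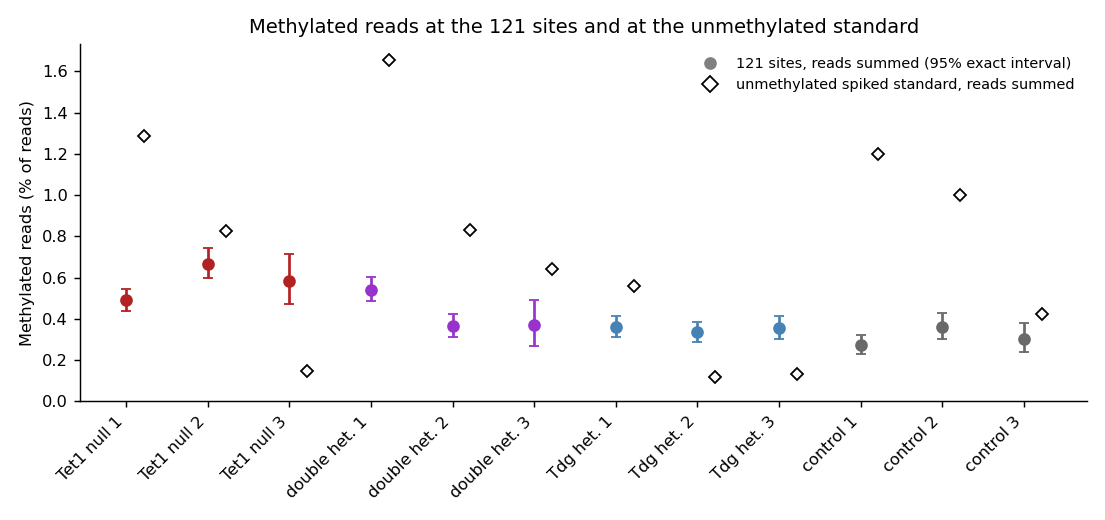
Methylated reads as a percent of all reads summed over the 121 sites (filled circles, 95% Clopper-Pearson intervals) and at the unmethylated spiked standard (open diamonds) in the 12 libraries. The Tet1 null circles lie at 0.491 to 0.668% and the control circles at 0.273 to 0.361%, while the diamonds spread from 0.120 to 1.66%.

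Differences between the mutants were tested site by site with edgeR's quasi-likelihood test, run on the read counts of both states in the 8 mutant adenomas, with Benjamini-Hochberg adjustment over all 14462 autosomal sites tested. Of the members 84 were tested, and the other 37 had no methylated read in any of the 8 mutant adenomas. Of the 84, 17 had methylated reads in Tet1 null adenomas alone and so could only have differed upward there. The counts below are set beside the share of all sites for this reason and are not read as support.

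Against Tdg heterozygous adenomas, 2 members were higher in Tet1 null adenomas (edgeR, adjusted p under 0.05), beside 1.71% of all sites tested, and 0 were lower, beside 0.0% of all sites. The 2 calls are 2.38% of the 84 members tested. At an unadjusted p under 0.05 there were 6 members (7.14% of those tested), beside 7.74% of all sites tested. All 6 were higher in Tet1 null adenomas, as were 1053 of the 1120 such sites among all sites. The median log2 odds ratio was 0.44 over the members tested and 0.25 over all sites. Over all tested sites with a control mean below 5% it was 0.50, so the members were not shifted more than sites of like level.

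The first called member was chr13:30229011, whose nearest listed site lay 503 bp away. Its level was 1.82%, 4.91% and 2.22% in the Tet1 null adenomas, 3.25% and 1.23% in the double heterozygous, 0.26%, 0.23% and 0.28% in the Tdg heterozygous and 1.64%, 0.66% and 1.91% in the control adenomas. The 3 Tdg heterozygous adenomas were the low group here, below every other adenoma of the 11, and the Tet1 null and control values overlapped. The Tet1 null levels rested on 9 of 486, 20 of 414 and 3 of 124 reads, and each Tdg heterozygous level on 1 methylated read of 392, 415 and 335. The difference was 2.73 percentage points, from 2.98% ± 1.68 in Tet1 null and 0.257% ± 0.0252 in Tdg heterozygous adenomas (SD, n = 3 each; edgeR adjusted p = 0.0255, range over the alternative settings 0.0116 to 0.379).

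The other called member was chr9:44188234. Its level was 1.61%, 4.34% and 1.71% in the Tet1 null adenomas, 0.95% and 1.59% in the double heterozygous, 0.54%, 0 and 0 in the Tdg heterozygous and 1.03%, 0.40% and 0 in the control adenomas. All 3 Tet1 null adenomas lay above the other 8, with adenoma 2 well above the rest. The means were 2.55% ± 1.55 in Tet1 null and 0.18% ± 0.312 in Tdg heterozygous adenomas (SD, n = 3 each), a difference of 2.37 points (edgeR adjusted p = 0.0280, range 0.0132 to 0.400). Both calls were lost with the replicate number as a block (adjusted p = 0.0653 for chr13:30229011 and 0.0869 for chr9:44188234), with sex as a covariate (0.169 and 0.163), and without Tet1 null adenoma 2 (0.379 and 0.400), Tet1 null adenoma 3 (0.0851 and 0.0794), Tdg heterozygous adenoma 2 (0.165 and 0.290) or Tdg heterozygous adenoma 3 (0.0960 and 0.182). The chr13:30229011 call was also lost without Tdg heterozygous adenoma 1 (0.171).

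Set against all 5 mutant adenomas that carry Tet1, no member was called in Tet1 null adenomas (edgeR), beside 1.72% of all sites tested called higher and 0.00691% called lower. Limma called 1 member on the log2 ratios of counts and 2 on the adjusted percent levels. The share of all sites that limma called is not given here, so its calls of members are not read as support. At an unadjusted p under 0.05 edgeR had 6 members (7.14% of those tested), beside 7.58% of all sites tested. All 6 were higher in Tet1 null adenomas, as were 1038 of the 1096 such sites among all sites. The median log2 odds ratio was 0.42 over the members, 0.23 over all sites and 0.65 over all tested sites with a control mean below 5%. This comparison and the one against Tdg heterozygous adenomas share the Tet1 null and Tdg heterozygous adenomas.

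The smallest p was at chr10:43442869, with 2.01%, 2.43% and 2.11% in the Tet1 null adenomas, 0.54% and 0.67% in the double heterozygous, 0.19%, 0.16% and 0.60% in the Tdg heterozygous and 0.50%, 0.72% and 0.45% in the control adenomas. The Tet1 null values lay close together and above every other adenoma. The means were 2.18% ± 0.219 in Tet1 null (SD, n = 3) and 0.432% ± 0.239 in the Tet1-carrying mutant adenomas (n = 5), and edgeR gave an adjusted p of 0.0871. Both limma fits called this member (adjusted p = 0.0293 on counts and 0.0419 on percent levels), and the range over all alternatives was 0.0293 to 0.382.

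At chr6:124365418 the Tet1 null adenomas did not agree. The level was 0.31%, 2.92% and 2.67% in the Tet1 null adenomas, 0.21% and 0 in the double heterozygous, 0, 0.59% and 0.25% in the Tdg heterozygous and 0.24%, 0 and 0.60% in the control adenomas. Tet1 null adenoma 1 lay among the Tet1-carrying adenomas, and the site was called only without it (edgeR adjusted p = 0.101 with all 3 adenomas and 0.0205 without adenoma 1). The members with the smallest p in the lower direction, chr7:149846999, chr11:95867884 and chr2:165980030, held at most 1.72% in any of the 8 mutant adenomas and had adjusted p of 0.650 to 1 over the settings for chr7:149846999, 0.577 to 1 for chr11:95867884 and 0.699 to 1 for chr2:165980030.

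All 3 Tet1 null values lay above all 5 Tet1-carrying mutant values at 4 members of 121, beside 4.01% of all 16868 sites with 100 reads, and below them at 0 members, beside 0.593%. The 4 are chr9:44188234, chr10:43442869, chr4:151525833 and chr13:69877411, the last of them named after its values were seen. Against the Tdg heterozygous adenomas alone the count was 8 members higher, beside 7.4% of sites, and 0 lower, beside 1.61%. As shares of the 121 members these are 3.31% and 6.61%, near the shares over all sites. At chr13:69877411 the level was 2.79% ± 0.572 in Tet1 null adenomas (SD, n = 3), 1.36% ± 0.594 in double heterozygous (n = 2), 1.37% ± 0.441 in Tdg heterozygous (n = 3) and 0.277% ± 0.266 in control adenomas (n = 3), so that each of the 8 mutant adenomas lay above each control adenoma. The shallow double heterozygous adenoma 3, not among the 8, had 0 of 96 methylated reads at this site.

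The members with the highest levels were chr17:43939352 and chr4:151525833, which also had the highest control means. The level at chr17:43939352 was 7.98%, 13.91% and 9.22% in the Tet1 null adenomas, 9.86% and 5.40% in the double heterozygous, 4.81%, 4.55% and 5.58% in the Tdg heterozygous and 3.94%, 4.63% and 4.42% in the control adenomas. It was the highest member in 7 of the 8 mutant adenomas, and the Tet1 null values lay above the Tdg heterozygous ones but overlapped the double heterozygous ones (edgeR adjusted p = 0.808 for Tet1 null against Tdg heterozygous). In double heterozygous adenoma 2 the highest was chr5:31440474, with 5.67%. That site had 1.29% in double heterozygous adenoma 1, 1.62 to 2.79% in the Tet1 null, 0.98 to 1.69% in the Tdg heterozygous and 1.87 to 2.45% in the control adenomas.

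The level at chr4:151525833 was 6.79%, 7.67% and 7.40% in the Tet1 null adenomas, 3.75% and 2.68% in the double heterozygous, 2.24%, 2.25% and 2.38% in the Tdg heterozygous and 2.87%, 5.11% and 1.94% in the control adenomas. The Tet1 null adenomas were the top 3 of the 11, and their spread was small beside the gap to the others. EdgeR gave an adjusted p of 0.365 against the Tet1-carrying mutants and 0.301 against Tdg heterozygous adenomas, while limma on the adjusted percent levels called it in both comparisons (adjusted p = 0.0280 against the Tet1-carrying mutants and 0.0251 against Tdg heterozygous).

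**Figure D4:**
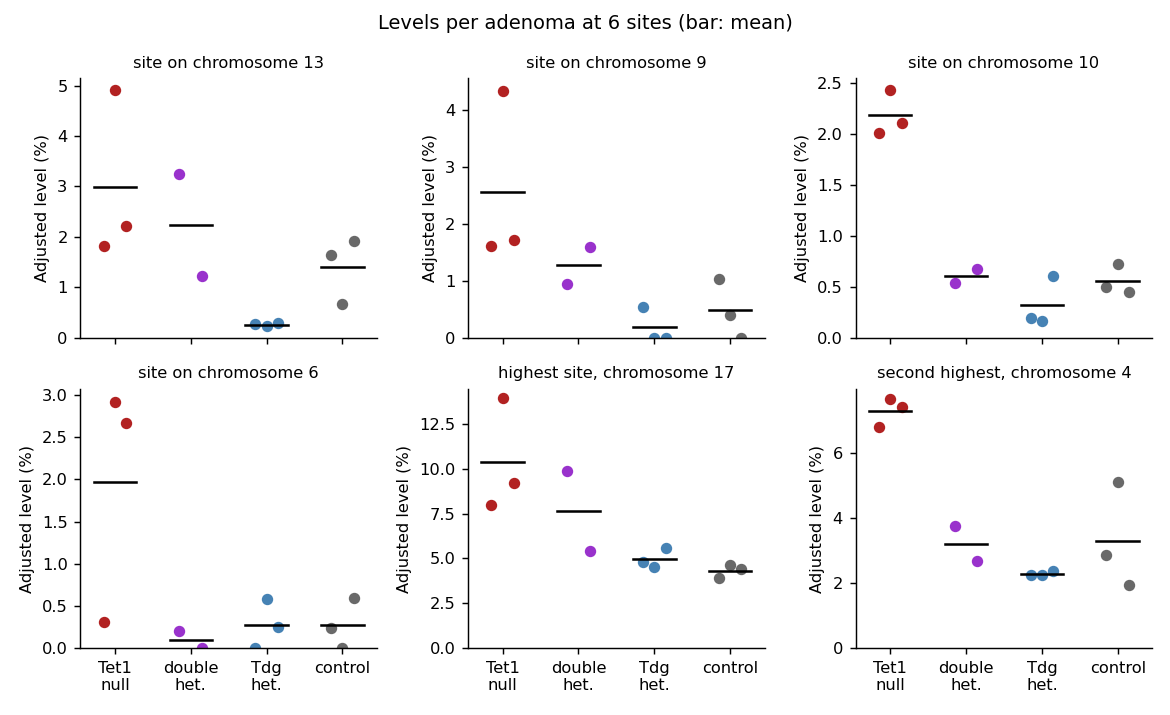
Adjusted methylation level (percent) per adenoma at 6 members, each panel with its own axis from 0; points are adenomas and bars group means. Levels reach 13.91% in the chromosome 17 panel and at most 4.91% in the chromosome 13, 9, 10 and 6 panels, and the Tet1 null points of the chromosome 10 and chromosome 4 panels lie together above all other adenomas.

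Against the double heterozygous adenomas no member was called in Tet1 null adenomas (edgeR), beside 0.588% of all sites higher and 0.00691% lower. Both limma fits called 0. At an unadjusted p under 0.05 there were 3 members (3.57% of those tested), beside 4.50% of all sites tested. All 3 were higher in Tet1 null adenomas, as were 581 of the 651 such sites among all sites. The 3 were chr6:124365418, chr10:43442869 and chr4:115611344 (adjusted p = 0.493 for chr6:124365418 and 0.941 for the other 2). At chr4:115611344 the level was 6.08%, 1.88% and 4.30% in the Tet1 null adenomas, 1.54% and 0.81% in the double heterozygous, 2.81%, 3.58% and 1.55% in the Tdg heterozygous and 5.35%, 0.94% and 2.41% in the control adenomas, and the Tet1 null and control values overlapped those of the Tdg heterozygous adenomas. Double heterozygous adenoma 3, left out of the test, had 3.81% at this site (4 of 114 reads), within the range of the Tet1 null values. The groups did not overlap at 7 members higher in Tet1 null adenomas, beside 7.9% of all sites, and at 1 member lower, chr7:20163552, beside 4.11%. The median log2 odds ratio was 0.41 over the members tested, 0.094 over all sites and 0.47 over all tested sites with a control mean below 5%.

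The double and Tdg heterozygous adenomas share TdgN151A/+ and differ in 1 Tet1 allele. No member was called between them (edgeR), beside 0.0% of all sites in either direction, and both limma fits called 0. At an unadjusted p under 0.05 there were 4 members (4.76% of those tested), beside 2.53% of all sites tested. All 4 were higher in double heterozygous adenomas, as were 255 of the 366 such sites among all sites. The smallest p values were at chr13:30229011 (2.24% ± 1.43 in double heterozygous, n = 2, and 0.257% ± 0.0252 in Tdg heterozygous adenomas, n = 3) and chr9:44188234 (1.27% ± 0.453 in double heterozygous and 0.18% ± 0.312 in Tdg heterozygous adenomas), the 2 members called against the same Tdg heterozygous adenomas above (SD; edgeR adjusted p = 1 for both). The groups did not overlap at 6 members higher in double heterozygous adenomas, beside 6.63% of all sites, and at 6 lower, beside 3.4%. The median log2 odds ratio was 0.085 over the members tested, 0.12 over all sites and 0.026 over all tested sites with a control mean below 5%. In the shallow double heterozygous adenoma 3, chr13:30229011 had 0 of 83 methylated reads and chr9:44188234 had 2 of 79.

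The nearest site, at the other end of the fragment where no site lies between, shows how local these levels are. Over the 30 pairs of members, both ends stayed at 0 in the 8 mutant adenomas in 4 pairs and below 1% in 19. A mean over the 8 mutant adenomas of 1% or more was reached at 1 end alone in 6 pairs and at both ends in 2. In 5 of the 6 the other end stayed below 1% in every mutant adenoma. The called member chr9:44188234 is one of them, since its nearest site chr9:44187730 had 0 methylated reads in all 12 libraries, with 110 to 429 reads in the 11. The nearest site of chr13:30229011, chr13:30228508, had 0.143% ± 0.169 in Tet1 null (SD, n = 3), 0.05% ± 0.0707 in double heterozygous (n = 2), 0.0367% ± 0.0635 in Tdg heterozygous (n = 3) and 0 in control adenomas.

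The members chr10:43442869 and chr10:43442367 form a pair 502 bp apart and differ in pattern. At chr10:43442367 the level was 2.54% ± 1.44 in Tet1 null (SD, n = 3), 2.46% ± 1.24 in double heterozygous (n = 2), 2.81% ± 0.323 in Tdg heterozygous (n = 3) and 2.64% ± 1.09 in control adenomas (n = 3), much the same in all 4 genotypes. At chr10:43442869 the Tet1 null mean of 2.18% stood above means of 0.605% in double heterozygous, 0.317% in Tdg heterozygous and 0.557% in control adenomas. The difference between the ends was not tested.

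At 61 members the nearest site was not a member. Of these nearest sites 15 were below 100 reads in a library, 39 were below 5% in control but had other neighbours, and 7 were at 5% or more in control. Of the 61, 34 were tested and none was called in any of the 4 comparisons (edgeR). Over all sites tested the share called was 1.73% for Tet1 null against the Tet1-carrying mutants, 1.71% against Tdg heterozygous and 0.595% against double heterozygous adenomas. It was 0.0% between the double and Tdg heterozygous adenomas. With 34 sites, 0 calls cannot be told from these shares. At an unadjusted p under 0.05 there were 4, 7, 3 and 2 of the 34 in the same order. The shares of all sites tested at this p were 7.58%, 7.74%, 4.50% and 2.53%.

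The 7 neighbours at 5% or more in control stand 505 to 532 bp from members that stayed below 5% in all 11 libraries. The sharpest step was between chr5:122292351 and chr5:122291846, 505 bp apart. The member had 1.33% ± 0.404 in Tet1 null (SD, n = 3), 1.68% ± 2.37 in double heterozygous (n = 2), 0.99% ± 0.572 in Tdg heterozygous (n = 3) and 0.773% ± 0.379 in control adenomas (n = 3). Its neighbour had 92.6% ± 1.18 in Tet1 null, 92.9% ± 1.58 in double heterozygous, 92.1% ± 1.23 in Tdg heterozygous and 89.2% ± 0.991 in control adenomas. At chr11:57748110 the level was 0 in the Tet1 null, Tdg heterozygous and control adenomas and 0.165% ± 0.233 in the double heterozygous, while chr11:57748630 had 35.4% ± 15.01 in Tet1 null, 31.5% ± 9.02 in double heterozygous, 25.05% ± 10.8 in Tdg heterozygous and 28.6% ± 10.4 in control adenomas. At chr13:58214565 the highest mean was 0.183%, in Tdg heterozygous adenomas, and chr13:58214033 had 22.2% ± 6.05 in Tet1 null, 9.66% ± 4.04 in double heterozygous, 15.4% ± 5.22 in Tdg heterozygous and 17.9% ± 2.71 in control adenomas. At the other 4 members with such a neighbour the mean was at most 0.405% in any genotype, while the neighbours' means were 5.43 to 14.2% in Tet1 null, 5.61 to 7.88% in double heterozygous, 3.53 to 12.5% in Tdg heterozygous and 5.05 to 11.7% in control adenomas. Of these neighbours, chr2:152560473 and chr14:118631514 were barely past the limit, with control means of 5.05% and 5.08%. At chr7:29076622 the control adenomas had 28.31%, 5.07% and 1.85%.

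Members just inside the control threshold were chr17:43939352 (control mean 4.33%), chr4:151525833 (3.31%) and chr4:115611344 (2.90%). Sites just outside were chr2:152560473 (5.05%), chr14:118631514 (5.08%) and chr5:114723680 (6.45%). At chr2:152560473 the level was 7.67% ± 2.96 in Tet1 null (SD, n = 3), 6.47% ± 6.35 in double heterozygous (n = 2) and 3.53% ± 1.41 in Tdg heterozygous adenomas (n = 3). At chr14:118631514 it was 9.87% ± 7.84 in Tet1 null, 5.61% ± 0.651 in double heterozygous and 5.68% ± 3.06 in Tdg heterozygous adenomas, with spreads as large as the differences. At chr5:114723680 it was 3.49%, 3.75% and 10.05% in the Tet1 null, 2.19% and 21.26% in the double heterozygous, 2.85%, 2.52% and 2.95% in the Tdg heterozygous and 6.04%, 7.88% and 5.43% in the control adenomas. On the distance threshold, the 9 members whose nearest site lay at 501 bp had a mean level of 1.73% ± 0.314 in Tet1 null, 1.20% ± 0.517 in double heterozygous, 1.07% ± 0.213 in Tdg heterozygous and 0.737% ± 0.275 in control adenomas. The 7 sites at exactly 500 bp, which the rule leaves out, had 0.154% ± 0.0862 in Tet1 null, 0.117% ± 0.166 in double heterozygous, 0.0524% ± 0.0595 in Tdg heterozygous and 0.0424% ± 0.0488 in control adenomas. The 9 members include chr17:43939352, the highest of the class.

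Because the 3 control adenomas chose the members, each was also left out of the choice in turn. Each class chosen on a pair of control adenomas held 122 sites. The control adenoma not used had a mean level of 0.515% (adenoma 1), 0.384% (adenoma 2) and 0.391% (adenoma 3). The first value includes a single site at 28.3%. Beside it, the Tet1 null adenomas had 0.568%, 0.875% and 0.714%, the double heterozygous 0.615% and 0.422%, and the Tdg heterozygous 0.399%, 0.365% and 0.386%. With control adenoma 2 held out, the Tet1 null adenomas had 0.506 to 0.878%, and with control adenoma 3 held out 0.521 to 0.811%. Each held-out control value lay below the Tet1 null values of its class, and the value of control adenoma 1 lay above all 3 Tdg heterozygous values. Those of control adenomas 2 and 3 lay between the lowest and highest Tdg heterozygous values of their classes.

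Other sites below 5% in control had neighbours within 500 bp, and the same order of genotypes was seen in them. The control level chose these classes too, so the low place of control in the order is partly set by the choice. With 1 neighbour (4684 sites) the mean level was 1.09% ± 0.159 in Tet1 null (SD, n = 3), 0.637% ± 0.0860 in double heterozygous (n = 2), 0.558% ± 0.0136 in Tdg heterozygous (n = 3) and 0.482% ± 0.0243 in control adenomas (n = 3). With 2 neighbours (2864 sites) it was 0.649% ± 0.0724 in Tet1 null, 0.384% ± 0.00769 in double heterozygous, 0.360% ± 0.0389 in Tdg heterozygous and 0.312% ± 0.0173 in control adenomas. With 3 or more (2772 sites) it was 0.357% ± 0.0353 in Tet1 null, 0.259% ± 0.0378 in double heterozygous, 0.244% ± 0.0105 in Tdg heterozygous and 0.203% ± 0.0219 in control adenomas. The isolated members, at 0.607% in Tet1 null and 0.315% in control adenomas, lay nearest the class with 2 neighbours. Differences between these classes were not tested, and the classes also differ in depth: the median depth in Tet1 null adenoma 3 was 118 reads at the members and 386 with 1 neighbour, 479 with 2 and 447 with 3 or more neighbours. Of sites tested, 2 of 84 members, 105 of 3740 sites with 1 neighbour, 28 of 2200 with 2 and 12 of 2020 with 3 or more were higher in Tet1 null than in Tdg heterozygous adenomas (edgeR).

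**Figure D5:**
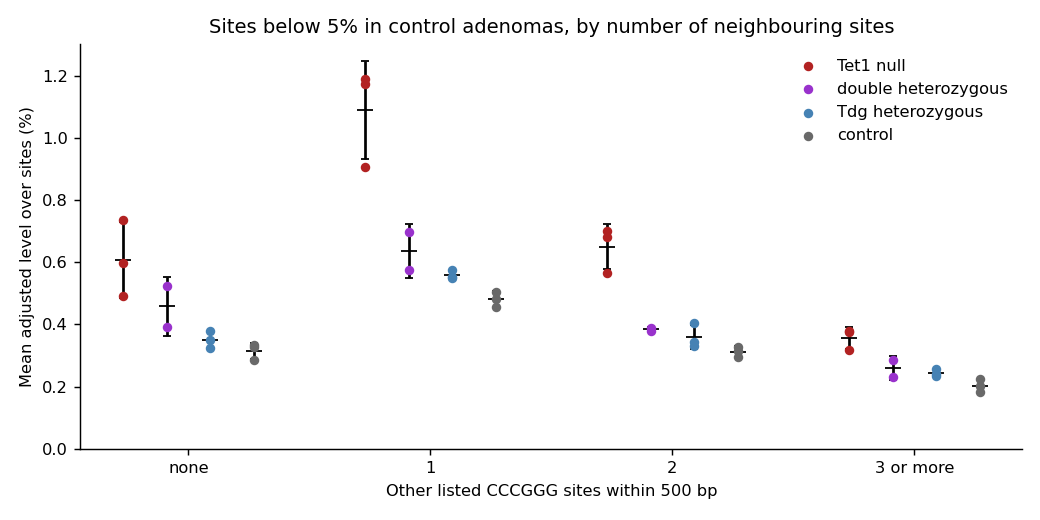
Mean adjusted methylation level (percent) over sites below 5% in control adenomas, by number of other listed CCCGGG sites within 500 bp; points are adenomas, long ticks group means and bars the SD. In each class the Tet1 null mean is the highest and the control mean the lowest, with 0.607% and 0.315% for sites with no neighbour and 1.09% and 0.482% for those with 1. The control level chose every class, so the low control mean is partly set by the choice.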

How the data were processed

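Methylation was measured at CCCGGG sites in 12 adenomas. Per the labels' protocols, DNA with spiked standards was cut with SmaI and then XmaI and sequenced. The submitters' processing notes name Trim Galore, Bowtie2 and the build mm9, with no version. The file headers name mm9 too, while the protocol text names a rat build. Per the file headers, the deposited counts are methylated, unmethylated and total reads per site. Percent levels were deposited both raw and adjusted by the authors with the standards, per the labels. A minimum depth of 100 reads is stated in the labels, but the tables also list shallower sites. Levels in the text are the adjusted percent.

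The members, lists and tests were chosen with earlier results of these data known. Groups were taken from the labels. Counts were tested with edgeR 4.0.16 (R 4.3.3), a quasi-likelihood test with a depth term for each adenoma, a methylation term for each genotype and no dispersion trend (common dispersion 0.118), two-sided. The fit held 8 mutant adenomas: control adenomas were left out because they chose the members, and double heterozygous adenoma 3 for its depth. Autosomal sites with 100 reads in 11 libraries and reads of both states were tested (14462), at an adjusted p threshold of 0.05. Alternatives were limma 3.58.1 (2 reads added to each count, or 0.5 percent added to each level), depth minimums, fits with added libraries, other limits of the class, replicate number as a block, sex as a covariate and leaving out adenomas. The fitting code was checked on simulated counts. Adenomas of a genotype differed at 24.2 to 44.7% of sites (chi-square p under 0.05), so none looked like 1 library deposited more than once. Named sites were drawn from the called members, the 3 members of smallest p in each direction where none was called, the highest member of each mutant adenoma and the 3 sites on either side of the control threshold. Members of smallest p in the lower direction are not described for the comparisons of double heterozygous with Tet1 null or Tdg heterozygous adenomas. Site levels were compared between ends and classes without a test. Figures were drawn with matplotlib 3.10.9. Neither the class nor the tests hold sites of the sex chromosomes, and Y reads served only to tell sex. Gene positions were not used here, so the absence of Tet1 was taken from the labels. No site sequence beyond CCCGGG is printed.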

Additional observations from a re-analysis of the deposited data

Results flagged for a closer look

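A difference between genotypes was called at chr13:30229011, which was 2.73 percentage points higher in Tet1 null than in Tdg heterozygous adenomas (higher in 3 of 3 adenomas, edgeR adjusted p = 0.0255, range over the alternative settings 0.0116 to 0.379). A second was called at chr9:44188234, 2.37 points higher (3 of 3 adenomas, edgeR adjusted p = 0.0280, range 0.0132 to 0.400). Tet1 null adenoma 2 gave the highest level at both, 4.91% and 4.34%, and neither call held without it. The Tdg heterozygous levels behind them rested on 1 methylated read in each adenoma at chr13:30229011 and on 2, 0 and 0 at chr9:44188234.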

How the results depend on the processing

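The count of members higher in Tet1 null than in Tdg heterozygous adenomas, 2 of 84 tested, was 8 at a depth minimum of 50 reads (480 members), 0 at 200 reads (3 members), 0 with 100 reads in all 12 libraries (57 members) and 60 with the neighbour limit at 300 bp (3033 members). It was 0 with the replicate number as a block and 0 with sex as a covariate, and 0 to 3 when 1 adenoma was left out. At 200 reads, and at 100 reads in all 12 libraries, chr13:30229011 and chr9:44188234 were no longer members and could not be called. Their lowest depths in the 11 libraries were 124 and 107 reads, and double heterozygous adenoma 3 had 83 and 79. With that adenoma added to the fit, both stayed called (edgeR adjusted p = 0.0154 and 0.0171). Correlations of deviations between same-numbered adenomas ran from -0.275 to 0.238, with 1 of 7 over 0.1. Deviations within a group of 2 or 3 adenomas are tied to each other. These values therefore cannot decide whether the replicate numbers pair the adenomas. Limma on counts called 3 members, both edgeR calls among them, and limma on percent levels called 2, neither of them an edgeR call. Against the Tet1-carrying mutants the count of 0 was 5 at 50 reads, 67 at 300 bp, 1 and 2 with limma on counts and on percent levels, and 0 to 1 without 1 adenoma (1 without Tet1 null adenoma 1). Against double heterozygous adenomas 300 bp gave 21. Left-out adenomas gave 0 there and between double and Tdg heterozygous adenomas. The 300 bp class was read from the main fit. In that fit 1.71% of all sites tested were called higher in Tet1 null than in Tdg heterozygous adenomas. The share was 1.72% against the Tet1-carrying mutants and 0.588% against double heterozygous adenomas. For the other settings the share over all sites is not given here, so their counts are not read as support. At chr2:165980030 the log2 odds ratio of Tet1 null against the Tet1-carrying mutants turned to 0.080 with limma on counts.

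The mean level over members at a depth minimum of 50 reads was 1.24% in Tet1 null, 0.801% in double heterozygous, 0.665% in Tdg heterozygous and 0.558% in control adenomas. At 200 reads it was 0.214% in Tet1 null, 0.0767% in double heterozygous, 0.209% in Tdg heterozygous and 0.159% in control adenomas, the only setting run in which the double heterozygous mean was below the Tdg heterozygous and control means. With 100 reads in all 12 libraries it was 0.421% in Tet1 null, 0.328% in double heterozygous, 0.307% in Tdg heterozygous and 0.271% in control adenomas, and with control below 2.5% 0.421% in Tet1 null, 0.349% in double heterozygous, 0.255% in Tdg heterozygous and 0.213% in control adenomas. At 300 bp it was 1.06% in Tet1 null, 0.638% in double heterozygous, 0.563% in Tdg heterozygous and 0.490% in control adenomas. With the class chosen without control adenoma 1, 2 or 3 it was 0.719%, 0.683% and 0.665% in Tet1 null, 0.518%, 0.4998% and 0.507% in double heterozygous, 0.384%, 0.395% and 0.377% in Tdg heterozygous and 0.409%, 0.354% and 0.354% in control adenomas. Without 1 adenoma of the genotype it was 0.544 to 0.666% in Tet1 null, 0.390 to 0.525% in double heterozygous, 0.338 to 0.365% in Tdg heterozygous and 0.306 to 0.330% in control adenomas. The share of members at 10% or more at 50 reads was 2.08% in Tet1 null, 1.15% in double heterozygous, 0.417% in Tdg heterozygous and 0.0694% in control adenomas, and at 300 bp 2.01% in Tet1 null, 0.593% in double heterozygous, 0.286% in Tdg heterozygous and 0.0330% in control adenomas. At a limit of 5% in place of 10% it was 1.93% in Tet1 null, 1.65% in double heterozygous, 0.275% in Tdg heterozygous and 0.551% in control adenomas. On the raw level it was 0.413% in double heterozygous adenomas. Chosen on a pair of control adenomas or without 1 adenoma, it was 0 to 1.09% in Tet1 null, 0 to 0.410% in double heterozygous, 0 in Tdg heterozygous and 0 to 0.273% in control adenomas. A neighbour limit of 1000 bp left no member.

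Depth limits these results. At 118 to 535 reads per site, levels near 1% rest on a handful of methylated reads, and 37 members without one in the mutant adenomas could not be tested. The class holds sites just past 500 bp from the nearest listed site, its members share fragments, and the groups hold 2 or 3 adenomas. A p that misses the threshold does not show that levels were alike.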
